A study of Rattus norvegicus with 9 samples.

Results

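The genes of iron uptake, iron storage and heme handling were followed in the proximal colon of rats fed different dietary proteins. Every probe set whose platform annotation gives 1 gene symbol, and that symbol is Slc11a2, Tfrc, Tf, Fth1, Ftl1, Cp or Hmox1, was taken, which gave 9 of the 8799 probe sets of the Affymetrix rat genome array used. They read 4 of the 7 genes, of 4736 genes with a probe set of their own on the array, with 3 probe sets for Slc11a2, 1 for Tfrc, 3 for Cp and 2 for Hmox1. For Tf, Fth1 and Ftl1, the probe sets found carry several symbols, so that no signal could be given to those genes alone.

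Male Sprague Dawley rats ate a purified diet throughout life with soy protein isolate (SPI), whey protein hydrolysate (WPH) or casein (CAS, the control diet) as its protein. All 3 groups, the CAS controls included, were given azoxymethane (AOM), a colon carcinogen, by 2 injections, each of 15 mg/kg, when 90 days old, and tissue free of tumor was taken from the proximal colon 40 weeks later. RNA of 7 rats per diet was pooled in equal amounts, and each pool was labelled in 3 separate reactions, with 1 array for each, or 9 arrays in all. The spread between arrays of a diet is thus that of labelling and hybridization. Each p-value compares 2 pools, 1 for each diet compared, and says nothing of the spread between rats. In whole tissue, fewer cells of a type and less RNA per cell cannot be told apart. The median signal lay between 149 and 165 on all 9 arrays, and the ratio of 3' to 5' signal of β-actin was 2.14 to 2.36 on the SPI arrays, 2.53 to 3.50 on the WPH arrays and 1.83 to 1.88 on the CAS arrays. The arrays went through the fluidics station in 3 rounds, and no SPI array shared a round with a CAS array. The first round held CAS replicates 1 to 3 with WPH replicate 2, the second held WPH replicates 1 and 3 with SPI replicates 1 and 2, and the third held SPI replicate 3.

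Iron enters cells by separate routes. Slc11a2 (DMT1), a proton-coupled transporter, carries ferrous iron across the brush border of the duodenum and out of endosomes, whereas the transferrin receptor Tfrc takes up iron bound to plasma transferrin. Iron is stored in ferritin, ceruloplasmin (Cp) oxidizes iron that has left cells so that transferrin can bind it, and heme oxygenase 1 (Hmox1) breaks heme down to biliverdin, carbon monoxide and iron. Iron regulatory proteins bind the mRNAs of ferritin, Tfrc and a form of Slc11a2, and Hmox1 transcription is raised by heme and by oxidative stress.

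Sequences upstream of the iron importers that differed between diets are shown because the array does not tell which start of Slc11a2 is used. RefSeq (rat assembly GRCr8) gives 2 starts for Slc11a2, both on the minus strand of chromosome 7. The 250 bases before each start, and those before the start of Tfrc, run 5' to 3' as follows, with capitals where 1 of the motifs below was found.
Slc11a2 start 1, chr7:133417789-133418038: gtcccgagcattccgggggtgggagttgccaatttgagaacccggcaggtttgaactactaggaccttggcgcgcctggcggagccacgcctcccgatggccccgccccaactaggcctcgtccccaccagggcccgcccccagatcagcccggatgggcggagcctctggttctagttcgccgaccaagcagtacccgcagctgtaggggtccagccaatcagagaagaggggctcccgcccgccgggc
Slc11a2 start 2, chr7:133418940-133419189: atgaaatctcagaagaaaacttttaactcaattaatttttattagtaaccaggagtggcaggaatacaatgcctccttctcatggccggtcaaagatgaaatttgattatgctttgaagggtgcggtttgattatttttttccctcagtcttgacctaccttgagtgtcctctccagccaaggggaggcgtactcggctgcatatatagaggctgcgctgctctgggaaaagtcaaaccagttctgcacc
Tfrc, chr11:81690319-81690568, minus strand: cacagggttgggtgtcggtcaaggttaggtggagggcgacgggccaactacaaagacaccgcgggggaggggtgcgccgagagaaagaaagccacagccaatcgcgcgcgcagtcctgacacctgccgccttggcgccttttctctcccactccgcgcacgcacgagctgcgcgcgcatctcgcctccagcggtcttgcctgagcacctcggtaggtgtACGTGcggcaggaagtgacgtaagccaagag

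The windows of the Slc11a2 starts were unlike in base composition, with 68.0% G and C and 19 CpG before start 1, against 43.6% and 5 CpG before start 2. The Tfrc window held 64.8% G and C and 26 CpG. A search of both strands for the hypoxia response core ACGTG, the antioxidant response core TGACNNNGC, the AP-1 site TGANTCA and the TATA box TATAAA found no match before either Slc11a2 start. Before Tfrc there was 1 match, ACGTG at position -31 counted back from the start. Of 33469 rat windows of the same length, 16.57% held ACGTG, 10.08% TGACNNNGC, 6.34% TGANTCA and 12.93% TATAAA.

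Slc11a2 and Hmox1 mRNA were markedly more abundant with SPI than with either other diet, and Tfrc was higher with SPI than with WPH. For Slc11a2 this rests on AF008439_g_at and rc_AA892390_s_at, and for Hmox1 on rc_AI179610_at, which were above 100 on all arrays. No probe set of these genes was called between WPH and CAS. Of the 9 probe sets, 7 reached a mean signal of 100 in at least 1 diet and were tested among 5606 probe sets with limma, and the other 2 were dim probe sets of Cp. In SPI against CAS, 5 of the 7 were higher at an adjusted p under 0.05 and 0 were lower, where 12.0% of all tested probe sets were called higher and 10.2% lower. In SPI against WPH, 6 were higher and 0 lower, with a background of 10.1% higher and 9.83% lower. In WPH against CAS, 0 were higher and 0 lower, with a background of 20.9% and 17.9%, and only Tfrc had an unadjusted p under 0.05. The methods' t-test after Benjamini-Hochberg adjustment also called 0 in that comparison. AF008439_at of Slc11a2 and J02722cds_at of Hmox1 reached a mean of 100 only in SPI. Their means thus had to be highest there, and the counts are given as a description. With fluidics round as a block the higher probe sets numbered 4 in SPI against CAS, 0 in WPH against CAS and 5 in SPI against WPH. Of all 5606 tested probe sets, that block called 100, 731 and 352 higher in the same order of comparisons. Probe sets of 1 gene read the same mRNA and are not independent.

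**Figure D1:**
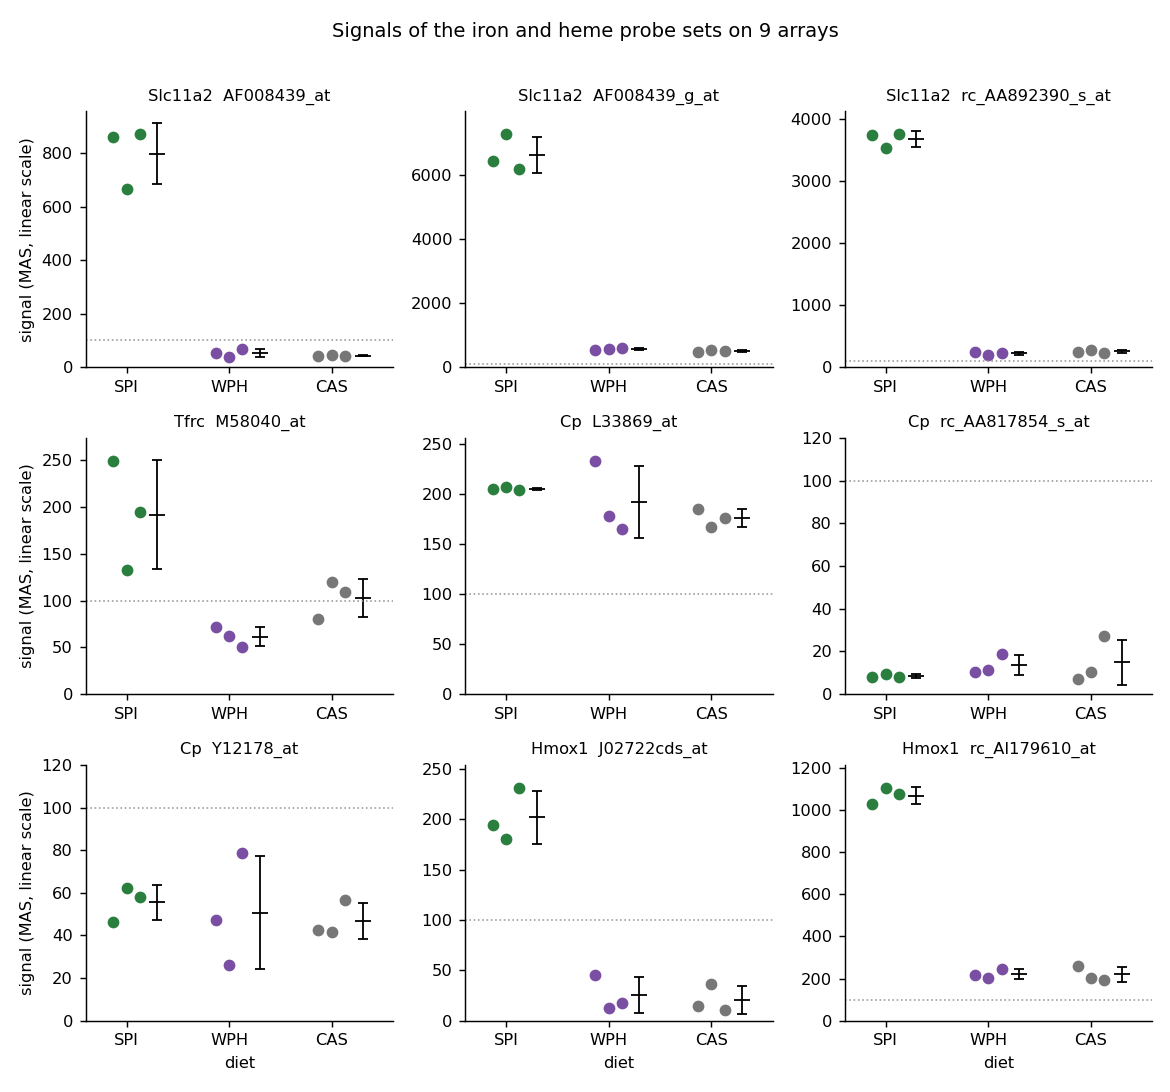
Signals of the 9 probe sets on the 9 arrays, 1 panel per probe set, with the diet on the x axis and the linear signal from 0 on the y axis. Points are arrays, and the bar beside them is the mean with SD of 3 arrays. The dotted line marks a signal of 100. All SPI points of Slc11a2 and Hmox1 lie above all WPH and CAS points. Of these probe sets, AF008439_at and J02722cds_at reached a mean of 100 only in SPI.

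Slc11a2, the ferrous iron importer, was the most changed of the genes. Its probe set AF008439_g_at gave signals of 6437, 7270 and 6187 on the SPI arrays, 520, 555 and 586 on the WPH arrays, and 478, 523 and 510 on the CAS arrays. The SPI arrays lay far above all others, while the WPH and CAS arrays overlapped. Means were 6632 ± 567 with SPI, 554 ± 33.1 with WPH and 504 ± 22.9 with CAS (SD, n = 3 each). The signal with SPI was 13.2-fold that with CAS (log2 change 3.72, SE 0.10, limma adjusted p = 7.55e-10) and 12.0-fold that with WPH (log2 change 3.58, SE 0.10, adjusted p = 1.52e-09).

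A probe set from another sequence record showed the same split. rc_AA892390_s_at read 3740, 3520 and 3744 with SPI, 245, 202 and 223 with WPH, and 242, 279 and 235 with CAS. All 3 SPI arrays were above the highest WPH or CAS array, and WPH and CAS again overlapped. The ratio of means was 14.6-fold for SPI over CAS (log2 change 3.87, SE 0.12, adjusted p = 2.03e-09) and 16.4-fold for SPI over WPH (log2 change 4.04, SE 0.12, adjusted p = 1.88e-09). The suffix of its name marks probes that may match more than 1 transcript.

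The dimmest Slc11a2 probe set, AF008439_at, shares its sequence record with AF008439_g_at. It read 859, 665 and 869 with SPI, 53.5, 39.6 and 69.4 with WPH, and 43.1, 43.8 and 40.6 with CAS. Only the SPI arrays exceeded 100. With each signal under 100 set to 100, SPI was at least 7.98-fold above CAS and at least 7.98-fold above WPH, both called by limma (adjusted p = 6.38e-07 and 1.0e-06). The fitted log2 change depends on signals under 100 and is no measured size. It was 4.22 in SPI against CAS and 3.91 in SPI against WPH, but 3.47 and 3.27 with 32 added to each signal.

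For Slc11a2, WPH did not differ from CAS past the threshold. Its 3 log2 changes in WPH against CAS were 0.31, 0.14 and -0.17, and the 95% confidence intervals ran from -0.23 to 0.86 for AF008439_at, from -0.081 to 0.35 for AF008439_g_at and from -0.43 to 0.083 for rc_AA892390_s_at. The sign differed between probe sets. Within the second fluidics round, SPI replicates 1 and 2 exceeded WPH replicates 1 and 3 by a log2 difference of 3.63 on AF008439_at, 3.63 on AF008439_g_at and 3.96 on rc_AA892390_s_at. With fluidics round as a block, SPI can be set against CAS only by way of WPH. The log2 changes in SPI against CAS were then 3.53 (adjusted p = 0.00247), 3.77 (adjusted p = 2.07e-05) and 3.64 (adjusted p = 5.3e-05), in the same order of probe sets.

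Hmox1, the inducible enzyme of heme breakdown, was likewise highest with SPI. Its brighter probe set, rc_AI179610_at, read 1026, 1103 and 1075 on the SPI arrays, 216, 204 and 247 on the WPH arrays, and 260, 204 and 195 on the CAS arrays. Every SPI array was above every other, and the WPH and CAS arrays were interleaved. Means were 1068 ± 39.0 with SPI, 222 ± 22.1 with WPH and 220 ± 35.4 with CAS (SD, n = 3 each). SPI was 4.86-fold above CAS (log2 change 2.29, SE 0.14, adjusted p = 9.39e-07) and 4.81-fold above WPH (log2 change 2.27, SE 0.14, adjusted p = 9.22e-07). The change in WPH against CAS was 0.023 on the log2 scale, with a 95% interval from -0.29 to 0.33 (adjusted p = 0.918).

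The other Hmox1 probe set, J02722cds_at, was above 100 on the SPI arrays alone. It read 194, 180 and 231 with SPI, 45.8, 12.5 and 18.0 with WPH, and 14.8, 36.9 and 11.0 with CAS. SPI was at least 2.02-fold above CAS and at least 2.02-fold above WPH by the same bound. Both differences were called by limma (adjusted p = 0.00269 against CAS and 0.0051 against WPH). Their fitted log2 changes, 3.46 and 3.21, depend on signals under 100 and were both 2.01 with signals under 50 set to 50. With fluidics round as a block they were 2.16 in SPI against CAS (adjusted p = 0.373) and 2.70 in SPI against WPH (adjusted p = 0.0619), and neither passed the threshold. On rc_AI179610_at both remained called under that block, with log2 changes of 2.11 (adjusted p = 0.00462) and 2.20 (adjusted p = 0.000127).

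The transferrin receptor Tfrc was near the lower limit of the signals used. M58040_at read 249, 133 and 194 with SPI, 71.4, 62.0 and 50.6 with WPH, and 79.7, 120 and 109 with CAS. The diets did not overlap, in the order SPI, CAS, WPH, but the SPI arrays were spread widely. SPI was at least 1.92-fold above WPH (log2 change 1.61, SE 0.30, adjusted p = 0.00293). The fitted change depends on signals under 100 and was 1.23 with 32 added to each signal. The call of SPI above WPH remained with fluidics round as a block (log2 change 1.60, adjusted p = 0.0359). It did not remain with the methods' t-test after Benjamini-Hochberg adjustment (adjusted p = 0.101).

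Against CAS, Tfrc did not pass the threshold in either diet. SPI was 1.87-fold above CAS (log2 change 0.88, SE 0.30, adjusted p = 0.0562), and over the alternatives that adjusted p ran from 0.0259 without SPI replicate 2 to 0.488 with fluidics round as a block. Without WPH replicate 3, which enters through the shared variance, it was 0.0492, and it was under 0.05 with 7 of 19 alternatives. In WPH against CAS the log2 change was -0.74 (SE 0.30, adjusted p = 0.0715).

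Ceruloplasmin (Cp) did not differ past the threshold in any comparison. L33869_at read 205, 207 and 204 with SPI, 233, 178 and 166 with WPH, and 185, 168 and 176 with CAS. The SPI arrays were nearly equal and lay above all CAS arrays, and the WPH arrays spanned both. The log2 change was 0.22 in SPI against CAS, with a 95% interval from -0.15 to 0.59 (adjusted p = 0.406), and 0.11 in SPI against WPH, from -0.26 to 0.48 (adjusted p = 0.690). In WPH against CAS it was 0.11, from -0.26 to 0.48 (adjusted p = 0.647). The methods' t-test called L33869_at higher in SPI than in CAS after Benjamini-Hochberg adjustment (adjusted p = 0.0393). The remaining probe sets of Cp were under 100 on all 9 arrays. Y12178_at ran from 46.4 to 62.3 with SPI, from 26.1 to 78.7 with WPH and from 41.4 to 56.6 with CAS, and rc_AA817854_s_at from 8.0 to 9.4, from 10.5 to 18.8 and from 7.0 to 27.0 in the same order. They were not tested, and no fold is given.

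**Figure D2:**
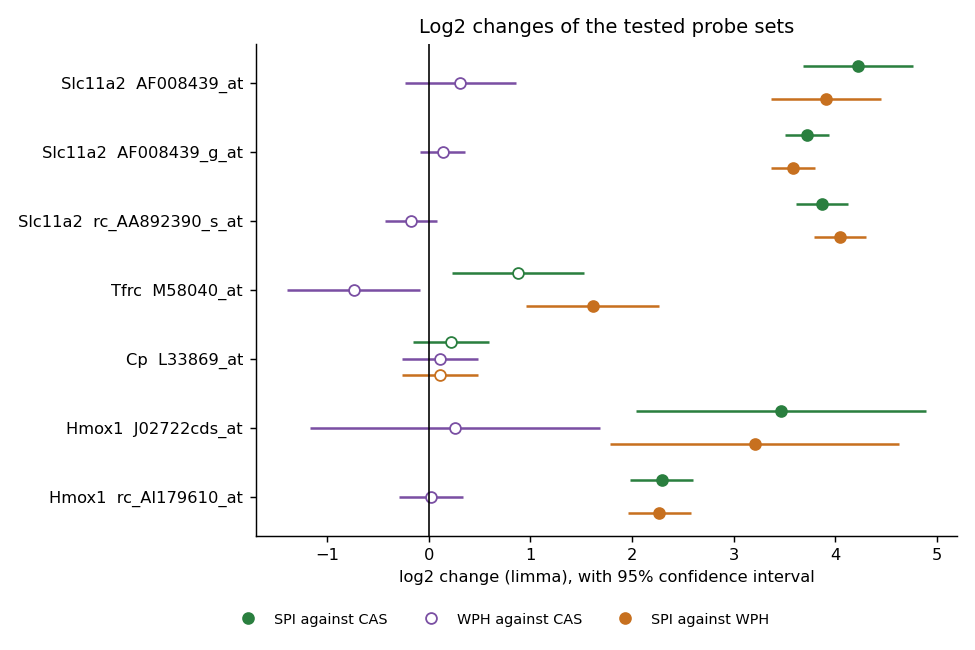
Log2 changes of the 7 tested probe sets on the x axis, with bars for 95% confidence intervals, in SPI against CAS, WPH against CAS and SPI against WPH. Filled points have a limma adjusted p under 0.05 and open points do not. The changes of AF008439_g_at and rc_AA892390_s_at of Slc11a2 in the SPI comparisons run from 3.58 to 4.04. Those of AF008439_at, of J02722cds_at and of M58040_at of Tfrc depend on signals under 100, and no point of WPH against CAS is filled.

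Transferrin and the ferritin chains could be read only through probe sets shared with other genes, and no value below belongs to 1 gene. rc_AI169802_at, annotated to Fth1 and a pseudogene of it, read 14092, 13671 and 13647 with SPI, 14911, 14619 and 14880 with WPH, and 12297, 13139 and 12573 with CAS. The diets did not overlap, yet the mean with WPH was only 1.17-fold that with CAS. The log2 change was 0.12 in SPI against CAS (adjusted p = 0.198) and 0.23 in WPH against CAS (adjusted p = 0.0146).

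The probe sets annotated to Ftl1 together with other genes were lower with WPH than with CAS. rc_AI231807_at averaged 8308 with SPI, 5925 with WPH and 8558 with CAS, with a log2 change of -0.53 in WPH against CAS (adjusted p = 0.000523) and of -0.040 in SPI against CAS (adjusted p = 0.800). On rc_AI231807_g_at the means were 6501, 5073 and 7594 in that order of diets, with -0.58 in WPH against CAS (adjusted p = 0.0220) and -0.22 in SPI against CAS (adjusted p = 0.443). Both probe sets were lower in WPH than in CAS, and neither was called in SPI against CAS. The arrays of rc_AI231807_g_at overlapped, with WPH replicate 2 at 6032 and CAS replicate 2 at 5941. In SPI against WPH rc_AI231807_at was called (limma adjusted p = 0.00235) and rc_AI231807_g_at was not (adjusted p = 0.183).

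The probe sets annotated to both Srprb and Tf (transferrin) were higher with WPH than with CAS on 2 of 3. D38380_g_at averaged 589 with SPI, 761 with WPH and 502 with CAS (log2 change 0.60 in WPH against CAS, adjusted p = 0.00127). U31866_g_at averaged 120, 133 and 68.0 in the same order, at least 1.33-fold above CAS with WPH (log2 change 0.93, adjusted p = 0.0230). Its CAS arrays were all under 100, so that the fitted change is no measured size. D38380_at ran from 165 to 555 within WPH alone and was not called in that comparison (log2 change -0.12, adjusted p = 0.837).

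Other genes of iron and heme handling were read from 4 lists, with 20 genes measured and 19 tested, each by its brightest probe set. In SPI against CAS, 2 of the 19 were higher and 0 lower, or 10.5% higher beside 12.0% higher and 10.2% lower of all tested probe sets, and the median log2 change was -0.061 beside -0.012 over all. In WPH against CAS, 1 was higher and 4 lower, or 5.26% and 21.1% beside 20.9% and 17.9%, with a median of 0.036 beside 0.060. In SPI against WPH, 3 were higher and 2 lower, or 15.8% and 10.5% beside 10.1% and 9.83%, with a median of -0.031 beside -0.079. With 19 genes, 1 gene is 5.26% of the list, and the counts are given as a description. The SPI and WPH comparisons share the CAS arrays, and those of SPI share the SPI arrays.

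Of the other iron transport genes, 3 were tested and 2 were higher in SPI than in CAS, beside 12.0% of all tested probe sets. Cybrd1, a ferric reductase of the brush border, averaged 144 with SPI, 98.0 with WPH and 66.1 with CAS, at least 1.44-fold above CAS with SPI (log2 change 1.13, adjusted p = 0.0131). Lcn2, which binds bacterial siderophores, averaged 223, 40.5 and 80.4 in the same order, at least 2.23-fold above CAS with SPI (log2 change 1.47, adjusted p = 0.0378). Cybrd1 and Lcn2 reached a mean of 100 only in SPI, so that their means had to be highest there, and their calls are given as a description. Lcn2 is also among the 4 genes called lower in WPH than in CAS, though its means were under 100 with both diets, and no fold is given. Slc40a1 (ferroportin), the iron exporter, read 565, 536 and 582 with SPI, 178, 98.2 and 207 with WPH, and 319, 452 and 343 with CAS. The 3 diets did not overlap in Slc40a1, and SPI was 3.48-fold above WPH (log2 change 1.87, adjusted p = 0.000320). Slc40a1 was lower in WPH than in CAS by 2.31-fold (log2 change -1.26, adjusted p = 0.00171), and its log2 change in SPI against CAS was 0.61 (adjusted p = 0.105).

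The genes of iron regulation and heme synthesis held no call in SPI against CAS, with 0 of 6 and 0 of 5. Over all tested probe sets, 12.0% were higher and 10.2% lower in that comparison, and lists this short can hold no call at such shares. Aco1, the iron regulatory protein that is also the cytosolic aconitase, was lower in WPH than in CAS, with a log2 change of -0.33 (adjusted p = 0.0194) and means of 828 with SPI, 730 with WPH and 915 with CAS. Ireb2, the other iron regulatory protein, averaged 192 with SPI, 120 with WPH and 121 with CAS (log2 change 0.65 in SPI against CAS, adjusted p = 0.123). Alas1, the first and rate-limiting enzyme of heme synthesis, averaged 636 with SPI, 350 with WPH and 712 with CAS. It was lower in WPH than in CAS by 2.03-fold (log2 change -1.03, adjusted p = 0.000138) and higher in SPI than in WPH by 1.82-fold (log2 change 0.86, adjusted p = 0.00138).

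Of the genes of heme carriage and breakdown, 0 of 5 tested were called in SPI against CAS. Over all tested probe sets, 12.0% were higher and 10.2% lower there, and so short a list can hold no call at such shares. Haptoglobin (Hp), the plasma carrier of free hemoglobin, averaged 220 with SPI, 442 with WPH and 288 with CAS, and was higher in WPH than in CAS (log2 change 0.62, adjusted p = 0.00417). Hmox2, the constitutive heme oxygenase, averaged 306 with SPI, 433 with WPH and 349 with CAS, and was lower in SPI than in WPH (log2 change -0.50, adjusted p = 0.0261). Its log2 change in SPI against CAS was -0.20 (adjusted p = 0.368).

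A separate list held enzymes induced by NRF2, the transcription factor that also induces Hmox1 under oxidative stress. Of 7 NRF2 target enzymes tested in SPI against CAS, 1 was higher and 1 lower, or 14.3% each. Over all tested probe sets, 12.0% were higher and 10.2% lower in that comparison. The median log2 change of the list was -0.15 beside -0.012 over all. Thioredoxin reductase (Txnrd1) was 1.34-fold higher in SPI than in CAS (log2 change 0.42, adjusted p = 0.00500), and microsomal epoxide hydrolase (Ephx1) was 1.53-fold lower (log2 change -0.62, adjusted p = 0.00561). All 7 were lower in WPH than in CAS, with log2 changes from -0.47 to -1.47. The glutathione genes Gclm, a subunit of the first enzyme of its synthesis, and Gsr, glutathione reductase, were lower in WPH than in CAS by 2.84-fold and 2.12-fold (adjusted p = 0.00198 and 1.49e-05). In SPI against WPH, 5 of the 7 were higher and 0 lower. Over all tested probe sets, 17.9% were lower in WPH than in CAS and 10.1% higher in SPI than in WPH. The colonocyte list, given below, had all 12 tested genes lower in WPH than in CAS. In SPI against WPH, 11 of these were higher and 0 lower. All 3 goblet cell genes moved in the same directions, whereas all 6 smooth muscle genes were higher in WPH than in CAS.

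**Figure D3:**
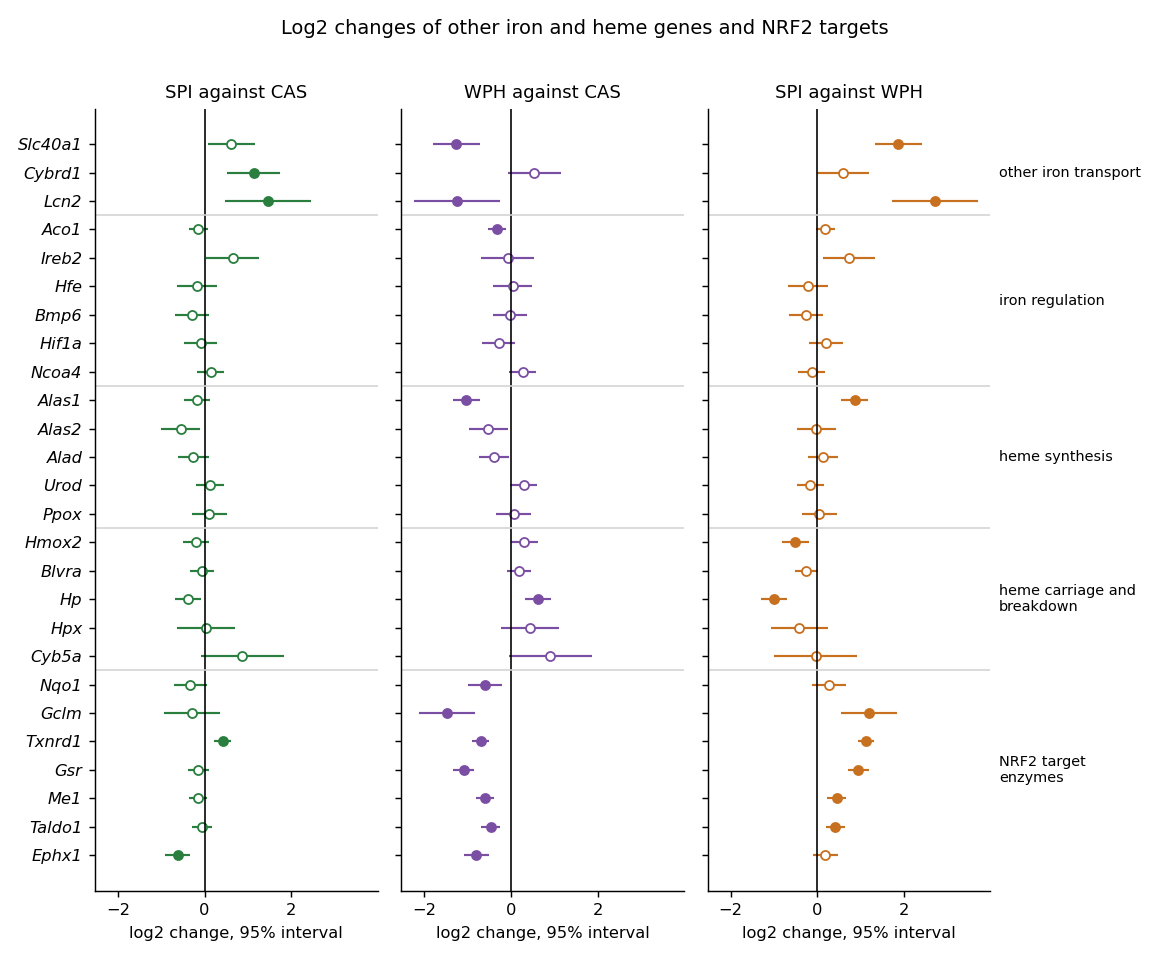
Log2 changes of the 26 tested genes of the 4 iron and heme lists and the NRF2 target list on the x axis, 1 panel per comparison, with bars for 95% confidence intervals. Filled points have a limma adjusted p under 0.05. In the WPH against CAS panel all 7 NRF2 target enzymes lie to the left of 0, and in the SPI against CAS panel the filled points on the right are Cybrd1 and Lcn2, which passed the filter only through SPI, and Txnrd1.

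The genes whose log2 signals over the 9 arrays were most like those of the brightest Slc11a2 probe set, among 2706 genes, were Reg1a, Cps1, Reg3b, Spp1 and Apoe, with Pearson's r from 0.988 to 0.995. The 9 arrays fall into 3 pools, so that these values describe the split between SPI and the rest and carry no p. Only genes with a mean of at least 200 in at least 1 diet were searched. Reg1a, Cps1 and Spp1, and Prap1 named below, reached that mean only in SPI. Their means thus had to be highest in SPI, and their likeness is given as a description. Reg1a and Reg3b, which encode secreted lectins, averaged 2009 and 15384 with SPI, 84.6 and 452 with WPH, and 66.4 and 225 with CAS. Osteopontin (Spp1) averaged 6130 with SPI, 105 with WPH and 55.0 with CAS, and Cps1, the mitochondrial carbamoyl phosphate synthetase, 2109, 69.3 and 35.6 in the same order. The 5 genes most like Hmox1 were Reg1a, Prap1, Reg3b, Spp1 and Cps1, with r from 0.982 to 0.990, of which 4 were among the 5 most like Slc11a2. Those most like Tfrc were Idi1, Vmp1, Oat, Lrrc59 and Casp1, with r from 0.943 to 0.974. None of these was among the genes most like Slc11a2 or Hmox1.

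Markers of other cells moved with the diets on the same arrays. The brightest genes of the colonocyte list were Krt8, Guca2a and Car2. The 14 colonocyte genes summed to 31694 to 32371 on the SPI arrays, 15290 to 16257 on the WPH arrays and 51030 to 53132 on the CAS arrays. The neutrophil list, with 5 genes measured, summed to 1312 to 1582 with SPI, 315 to 394 with WPH and 280 to 352 with CAS. Its calprotectin genes S100a9 and S100a8 averaged 783 and 347 with SPI, 71.7 and 9.43 with WPH, and 27.7 and 4.07 with CAS, whereas Il1b averaged 252, 214 and 262, and Cxcr2 and Cxcl2 were under 100 on all arrays. The macrophage and monocyte list, with 9 genes measured, summed to 16038 to 16420 with SPI, 11084 to 12165 with WPH and 8964 to 10131 with CAS. Of its 7 tested genes, 4 were higher and 1 lower in SPI than in CAS. Over all tested probe sets, 12.0% were higher and 10.2% lower in that comparison. Lyz2, a lysozyme of phagocytes, averaged 6692, 3331 and 2412 in the same order and was higher, Cd14, a receptor for endotoxin, averaged 391, 332 and 671 and was lower, and Cd74, the invariant chain, averaged 6530, 6941 and 5706 and was not called, while Csf1r and Itgam were under 100 on all arrays. The small intestinal enterocyte list had 6 of 14 tested genes higher and 3 lower in SPI than in CAS, beside the same shares over all. The higher ones were Cps1, named above among the genes most like Slc11a2, with Rbp2, Apoa1, Apob, Apoa4 and Slc5a1. Rbp2, a retinol carrier, averaged 469 with SPI, 24.2 with WPH and 91.7 with CAS, Apoa1 1370, 223 and 550, and the glucose transporter Slc5a1 690, 405 and 385 in the same order. The lower ones were Fabp1, Fabp2 and S100g, with Fabp2 at 374 with SPI, 227 with WPH and 1656 with CAS. Si and Slc2a2 were under 100 on all arrays by the probe set used. Cps1 and Rbp2 reached a mean of 100 only in SPI, as did S100a8 and S100a9. Whether these cells had a part in the values of Slc11a2 and Hmox1 was not tested.

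Red blood cells hold most of the heme of the body. The 3 genes of their list, Hbb, Hbb-b1 and Slc4a1, had 0 calls in SPI against WPH (limma) and 2 higher in SPI than in CAS. Over all tested probe sets, 10.1% were higher and 9.83% lower in SPI against WPH, and 12.0% higher in SPI against CAS. The 3 genes summed to 1561 to 1917 with SPI, 1810 to 1948 with WPH and 1190 to 1258 with CAS. The CAS arrays stood apart by the male reproductive tract list, whose 10 genes summed to 813 to 928 with SPI, 501 to 804 with WPH and 7492 to 7922 with CAS, with the prostaglandin D synthase Ptgds at 43.3, 46.0 and 1985. The smooth muscle list summed to 118930 to 120680 with SPI, 158600 to 179270 with WPH and 81342 to 84496 with CAS, and the 3 goblet cell genes to 7607 to 10240, 2411 to 3388 and 19327 to 22355 in the same order. In SPI against WPH the log2 changes were 3.58 for AF008439_g_at of Slc11a2 and 2.27 for rc_AI179610_at of Hmox1, beside 3.72 and 2.29 in SPI against CAS. Whether the cells read by these lists had a part in these changes was not tested.

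**Figure D4:**
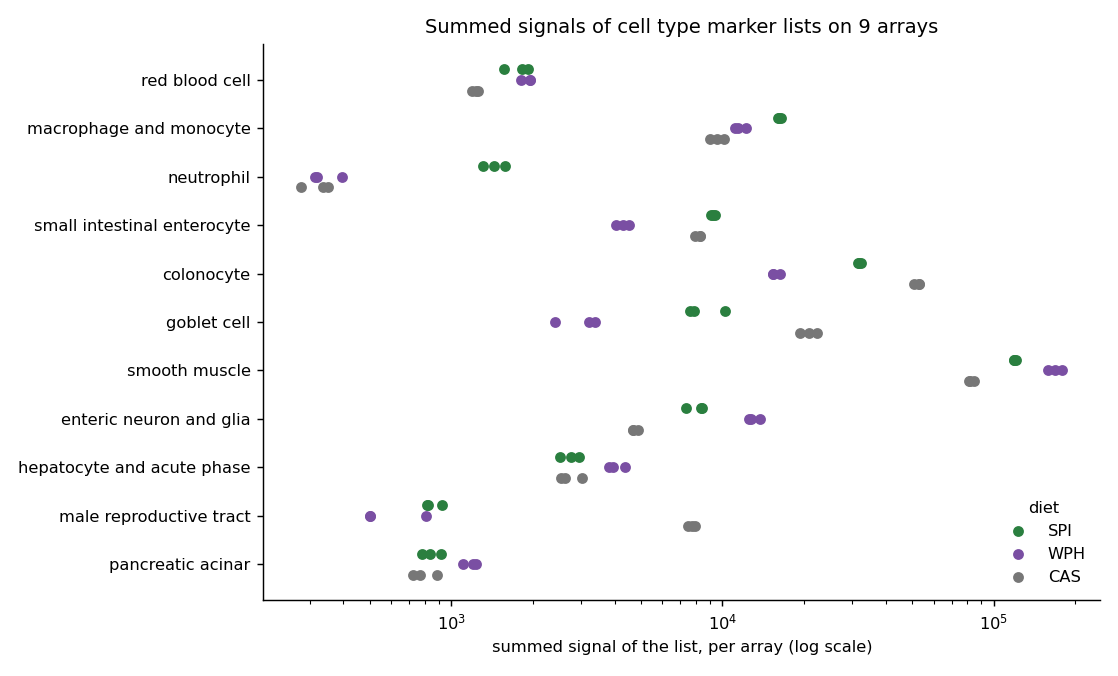
Summed signal of each marker list per array on a log x axis, with 3 points per diet. The neutrophil sums of the SPI arrays run from 1312 to 1582, above those of the WPH and CAS arrays. In that list S100a8 and S100a9 reached a mean of 100 only in SPI, whereas Il1b averaged 252 with SPI and 262 with CAS. The male reproductive tract sums of the CAS arrays run from 7492 to 7922, above all others.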

How the data were processed

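The deposited intensity values are linear signals that the authors computed with Affymetrix Microarray Suite (MAS) and scaled so that each array averaged 500, and the instrument settings files were read only for fluidics times. Probe sets were named from the platform annotation, which gave 1 symbol for 7018, several for 308 and none for 1473. Signals under 0.1 were set to 0.1 and changed to log2, 59 controls were left out, and the 5606 of 8740 probe sets with a mean of at least 100 in at least 1 diet were fitted in 1 model of 3 diets with limma 3.58.1 (R 4.3.3) with a variance trend. P-values were adjusted over all 5606 by the method of Benjamini and Hochberg, and 0.05 was the threshold. Precision is set by 3 arrays per diet. Folds are ratios of mean signals. Where a diet was under 100 on all 3 arrays, its signals were raised to 100 and the fold is a lower bound.

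All probe sets of the genes studied are given. Of each other iron or heme list, up to 4 genes called in SPI against CAS and up to 2 called only elsewhere are named, Ireb2 being added after its values were seen. Of marker lists, genes among the 3 brightest are named, with those under 100 on all arrays, and Cd14 and the called enterocyte genes were added after their values were seen. Members and lists were chosen with earlier results of these data known. The fit was tested on simulated data. Alternatives were another floor, an added constant, other filters, quantile normalization, median centring, no trend, only the compared diets, the methods' tests, replicate or fluidics round as a block, and each array left out. Python 3.11.15 was used for the other steps.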

Additional observations from a re-analysis of the deposited data

How the results depend on the processing

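The counts of probe sets called were within 1.5 times their main values under the alternatives run, with 1 exception. In WPH against CAS the count of lower probe sets was 1 in place of 0 with no variance trend and 1 with the methods' t-test at P under 0.05, Tfrc in both. The count of higher ones ran from 4 to 6 in SPI against CAS and from 5 to 6 in SPI against WPH, and with an array left out from 5 to 6 and from 6 to 6. With replicate number as a block it was 5, 0 and 6 in SPI against CAS, WPH against CAS and SPI against WPH, and no call of these probe sets changed. Arrays that share a number correlated from -0.28 to 0.24 in their deviations and other arrays from -0.34 to 0.29, so the numbers do not pair arrays.

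Signs turned only in WPH against CAS, where nothing was called. AF008439_at was at -0.10 with fluidics round as a block and within the first round, where J02722cds_at was at -0.54 and rc_AI179610_at at -0.097 by both. With an array left out, J02722cds_at ran from -0.28 (without WPH replicate 1) to 0.77, with -0.10 without CAS replicate 3. Likewise rc_AI179610_at ran from -0.059 (without CAS replicate 3) to 0.15, with -0.055 without WPH replicate 3 and -0.024 without CAS replicate 2, and L33869_at from -0.038 (without WPH replicate 1) to 0.21. With signals under 50 set to 50, the WPH and CAS signals of J02722cds_at were all equal, so that it showed no change there. With fluidics round as a block, probe sets called over the whole array fell to 100 higher and 152 lower in SPI against CAS, against 673 and 570 without it. Signals near or under 100 limit Tfrc, J02722cds_at and the dim probe sets of Cp.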
